A study of Saccharomyces cerevisiae with 11 samples.

Results

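The 26S proteasome of budding yeast is built from the products of 33 genes, and most of these genes are read by 1 transcription factor, Rpn4. The 34 genes described here are these 33 subunit genes and *RPN4* (YDL020C), taken by their systematic names from the 7126 genes in the count table. They comprise 14 genes of the 20S core particle (7 alpha and 7 beta subunits), 6 Rpt ATPase genes and 13 Rpn genes (4 of the base and 9 of the lid), and all 34 passed the filter on low counts. Messenger RNA levels were measured by RNA sequencing in 4 groups of *Saccharomyces cerevisiae* cultures, each carrying an integrated huntingtin (Htt) fragment fused to a nuclear localization signal (NLS) and GFP under the *GAL* promoter. Htt103Q [V] had the polyglutamine-expanded NLS-Htt103Q-GFP and an empty vector (n = 3), and Htt25Q [V] had the short NLS-Htt25Q-GFP and the same vector (n = 2). Htt103Q [SLX5] had NLS-Htt103Q-GFP and *SLX5* on a *CEN* plasmid (n = 3). Htt25Q [SLX5] had NLS-Htt25Q-GFP and that *SLX5* plasmid (n = 3). Every culture grew at 25°C in 2% raffinose and then received 2% galactose for 4 h, so the Htt fragment was induced in the Htt25Q cultures too. The chromosomal *SLX5* gene was present in all groups, and the letters a, b and c name clones within a group. The Htt103Q and Htt25Q fragments sat in different strains, so the strain and the glutamine length cannot be told apart. In a culture, a change in every cell and a change in a fraction of the cells cannot be told apart either.

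The proteasome is the protease that degrades ubiquitin-tagged proteins in the cytosol and nucleus. Its barrel-shaped core particle is capped by the regulatory particle, in which a ring of Rpt ATPases unfolds substrates, Rpn subunits of the base bind ubiquitin, and the lid removes the ubiquitin chain. Rpn4 is a short-lived activator that is itself a proteasome substrate, so that it accumulates when proteasomes are overloaded. It binds the proteasome-associated control element (PACE) upstream of subunit genes, and this loop is known in yeast as the way cells adjust proteasome number to demand. Slx5 is a subunit of a SUMO-targeted ubiquitin ligase, an enzyme that adds ubiquitin to proteins carrying SUMO.

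The PACE core, GGTGGCAAA, was searched on both strands from 250 bases before to 50 bases after the start codon of each gene in the RefSeq R64 reference, which is the S288C strain and not the strain of these cultures. It was present in 27 of the 33 subunit windows (81.8%), against 72 of 6007 windows over all genes (1.2%), these 27 included. A stretch between divergent genes can count for both. PACE was already known as an element of subunit genes, so its higher share there is a description and not a finding. A looser form with any outer base, NGTGGCAAN, which includes the PACE core, was present in 32 of 33 (97.0%), against 278 of 6007 (4.63%). The 5 subunit genes with the looser form alone were *PRE5*, *PUP1*, *RPN8*, *RPN10* and *SEM1*, and *RPN13* had neither, as did *RPN4* itself. Where present, the core stood 75 to 174 bases before the start codon (median 111), in 19 genes on the coding strand and in 8 on the other. A match is a description of the letters and not a measured binding site. Shown next are the 180 bases before the start codon, and the start codon, of *RPN4*, of the 3 subunit genes with the largest called rise in Htt103Q [V] cultures (*RPT2*, *RPT3* and *RPN1*) and of the 4 that fell (*SEM1*, *PRE3*, *PRE5* and *RPN13*), each 5′ to 3′ on the coding strand, with ATG and any match to NGTGGCAAN in capitals.
RPN4 (YDL020C, chrIV:416706-416888, minus strand): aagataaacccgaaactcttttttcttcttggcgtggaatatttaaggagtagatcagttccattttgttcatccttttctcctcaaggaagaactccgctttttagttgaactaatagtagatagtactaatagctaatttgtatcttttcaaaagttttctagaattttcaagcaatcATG
RPT2 (YDL007W, chrIV:437867-438049, plus strand): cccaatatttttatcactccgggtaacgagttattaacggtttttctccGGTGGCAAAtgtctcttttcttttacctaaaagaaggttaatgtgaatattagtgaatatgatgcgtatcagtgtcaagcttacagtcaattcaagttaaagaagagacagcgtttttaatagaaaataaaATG
RPT3 (YDR394W, chrIV:1261501-1261683, plus strand): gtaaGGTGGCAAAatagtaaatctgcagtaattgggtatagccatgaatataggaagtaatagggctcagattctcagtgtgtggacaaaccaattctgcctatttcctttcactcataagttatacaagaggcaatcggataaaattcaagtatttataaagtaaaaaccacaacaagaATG
RPN1 (YHR027C, chrVIII:164709-164891, minus strand): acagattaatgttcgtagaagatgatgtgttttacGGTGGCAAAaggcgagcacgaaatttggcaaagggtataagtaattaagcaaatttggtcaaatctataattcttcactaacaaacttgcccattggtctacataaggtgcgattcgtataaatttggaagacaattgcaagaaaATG
SEM1 (YDR363W-A, chrIV:1201948-1202130, plus strand): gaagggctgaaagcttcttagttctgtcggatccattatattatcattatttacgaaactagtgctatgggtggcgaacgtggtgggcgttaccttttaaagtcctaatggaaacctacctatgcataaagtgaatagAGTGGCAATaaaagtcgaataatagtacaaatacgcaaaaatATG
PRE3 (YJL001W, chrX:434983-435165, plus strand): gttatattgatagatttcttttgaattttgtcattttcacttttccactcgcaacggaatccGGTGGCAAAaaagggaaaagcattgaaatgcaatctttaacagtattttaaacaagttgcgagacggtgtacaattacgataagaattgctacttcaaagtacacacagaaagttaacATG
PRE5 (YMR314W, chrXIII:901529-901711, plus strand): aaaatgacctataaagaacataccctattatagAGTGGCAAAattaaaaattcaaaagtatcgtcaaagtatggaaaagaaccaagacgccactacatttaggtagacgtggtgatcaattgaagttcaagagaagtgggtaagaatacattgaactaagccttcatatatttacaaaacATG
RPN13 (YLR421C, chrXII:965558-965740, minus strand): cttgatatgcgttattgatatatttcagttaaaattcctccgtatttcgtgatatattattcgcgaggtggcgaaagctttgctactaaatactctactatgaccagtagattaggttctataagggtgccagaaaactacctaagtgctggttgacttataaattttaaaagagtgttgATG
The risers shown each carry GGTGGCAAA, and so does *PRE3*, which fell. The match of *PRE5* begins with A in place of the first G, and that of *SEM1*, AGTGGCAAT, lies 33 bases from the start codon, nearer than any core match of the other subunit genes. The printed sequences of *RPN13* and *SEM1* also hold ggtggcgaa, the core with g in place of an a, which neither form matches. Such variants were not searched for.

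Library totals ran from 19942070 to 29440801 estimated counts, and the 374 counts of the 34 genes (1442 to 21698) were all whole numbers within 0.005, so none of their reads had been divided between genes. *SLX5* was higher in the plasmid cultures of both strains, with 494, 752 and 663 CPM (counts scaled to a common library size by TMM) in Htt103Q [SLX5] against 53.9, 50.1 and 65.2 CPM in Htt103Q [V], and 1216, 1173 and 1147 CPM in Htt25Q [SLX5] against 94.4 and 99.6 CPM in Htt25Q [V]. Transcripts of ribosomal RNA genes took 1.02% to 2.40% of the counts in the clone a libraries and 0.254% to 0.958% in the others. One culture stood apart for the proteasome genes: Htt103Q [SLX5] b was the lowest of its group for 32 of the 34 genes, where it was lowest for 38.3% of all genes tested. The 33 subunit genes together took 0.904% of its counts, against 1.15% and 1.10% in the other Htt103Q [SLX5] cultures and 1.07% to 1.15% in Htt103Q [V]. In the 5 cultures of Htt25Q the share was 0.833% to 0.858%. That culture also had the highest *SLX5* value of its group, and whether these values are related was not tested.

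*RPN4* rose in both comparisons of the Htt103Q strain with the Htt25Q strain. With empty vector its level was 480, 459 and 419 CPM in Htt103Q [V], against 162 and 162 CPM in Htt25Q [V]. The log2 fold change was 1.48 (SE 0.14), or 2.79-fold, with an adjusted p of 2.8e-05 by edgeR's quasi-likelihood test. With plasmid *SLX5* the level was 460, 302 and 394 CPM in Htt103Q [SLX5], against 159, 153 and 143 CPM in Htt25Q [SLX5]. Every Htt103Q culture stood above every Htt25Q culture, and the lowest Htt103Q value belonged to Htt103Q [SLX5] b. The log2 fold change with the plasmid was 1.34 (SE 0.13, edgeR adjusted p = 2.5e-05), and it was 1.51 without culture b. Over all 22 alternatives each, the value stayed between 1.44 and 1.55 with vector and between 1.21 and 1.51 with the plasmid, and every one was called. The plots of CPM by culture show *RPN4* beside 7 subunit genes.

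**Figure D1:**
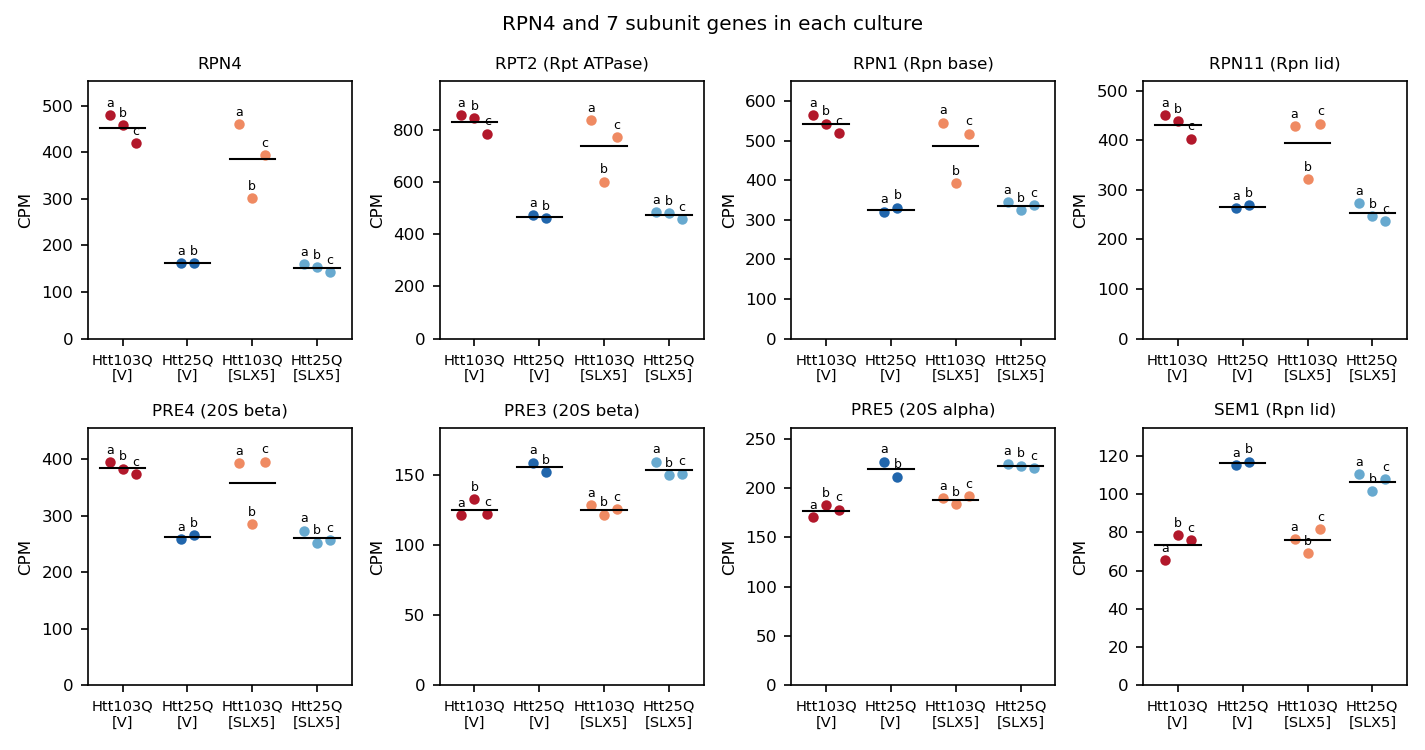
CPM (TMM-scaled, axes from 0) of RPN4 and 7 subunit genes in each culture; each point is 1 culture with its clone letter and each bar the group mean. For RPN4 all Htt103Q cultures lie at 302 CPM or above and all Htt25Q cultures at 162 CPM or below, and for SEM1 the order is the other way round.

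Of the 33 subunit genes, 15 were called higher in Htt103Q [V] than in Htt25Q [V], 4 lower and 14 in neither direction (edgeR's quasi-likelihood test, Benjamini-Hochberg adjusted p under 0.05 over 6321 genes). Over all genes tested, 27.3% were called higher and 29.5% lower, since more than 1 gene in 2 changed in this comparison. The median log2 fold change of the 33 was 0.20, beside -0.021 over all genes, and 27 of the 33 values were positive. The rises were modest, from 0.22 to 0.83 on the log2 scale, and each was smaller than that of *RPN4*. Summed over the 33 genes, the level was 10852, 11077 and 10492 CPM in Htt103Q [V] and 8656 and 8682 CPM in Htt25Q [V], a ratio of the means of 1.25. In CPM the ratio was 1.33 for the 19 genes of the regulatory particle and 1.11 for the 14 of the core particle. In TPM, which weights short genes more and carries no TMM scaling, it was 1.26 and 1.21. The smaller gap in TPM leans on *SEM1*, which alone held 759 of the regulatory particle's 3470 TPM in Htt25Q [V]. In Htt103Q [V] it held 543 of 4378 TPM, and its level per length is uncertain. The gap in TPM without *SEM1* was not computed. Of the 15 rises, 9 (*PUP1*, *PRE4*, *RPT2*, *RPT3*, *RPN1*, *RPN2*, *RPN3*, *RPN6* and *RPN11*) were called in every alternative fitted. The other 6 (*PRE8*, *PUP3*, *PRE7*, *RPT4*, *RPT5* and *RPT6*) lost the call in at least 1, and without Htt25Q [V] a the count of rises was 9. The plot of log2 fold changes gives all 34 genes in both strains' comparisons.

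**Figure D2:**
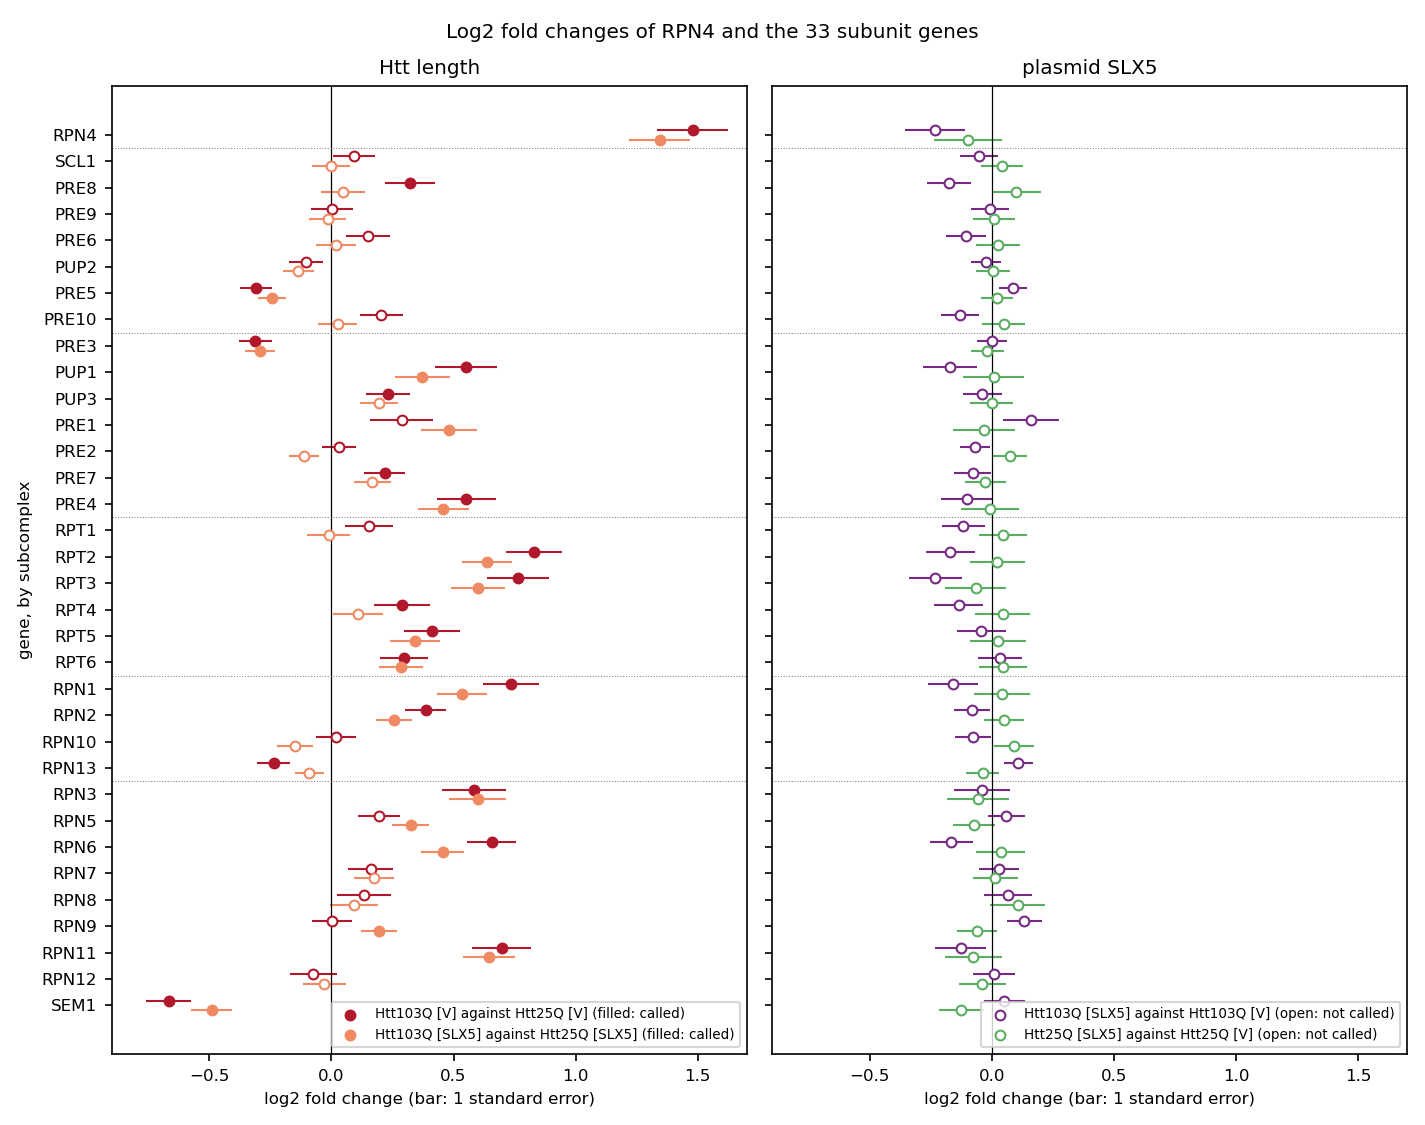
Log2 fold change (bar: 1 SE) of RPN4 and the 33 subunit genes, by subcomplex, for Htt length (left: Htt103Q over Htt25Q, with vector and with plasmid SLX5) and for plasmid SLX5 (right: in Htt103Q and in Htt25Q cultures); filled points were called. On the left RPN4 lies at 1.48 and 1.34 and SEM1 at -0.67 and -0.49, and on the right no point is filled.

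Among the 7 alpha subunit genes, which encode the outer rings that gate the core, 1 rose and 1 fell. *PRE8* (YML092C) had 293, 275 and 246 CPM in Htt103Q [V], against 215 and 219 CPM in Htt25Q [V]. Its log2 fold change was 0.32 (SE 0.10, edgeR adjusted p = 0.018), and the groups did not overlap. *PRE5* (YMR314W) had 170, 183 and 178 CPM in Htt103Q [V], against 227 and 211 CPM in Htt25Q [V]. Its groups were also apart, with a log2 fold change of -0.31 (SE 0.06, edgeR adjusted p = 0.0019). The other alpha genes, *SCL1*, *PRE9*, *PRE6*, *PUP2* and *PRE10*, were not called, with log2 fold changes from -0.10 (*PUP2*) to 0.20 (*PRE10*). *PRE9*, which encodes the only core subunit that yeast can grow without, was at 0.0015 (SE 0.086).

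Of the 7 beta subunit genes, 4 rose and 1 fell. *PRE4* (YFR050C), a beta subunit without a protease site of its own, had 396, 384 and 374 CPM in Htt103Q [V], against 259 and 265 CPM in Htt25Q [V]. Its log2 fold change was 0.55 (SE 0.12, edgeR adjusted p = 0.0024). *PUP1* (YOR157C), the subunit with the trypsin-like site, had 168, 165 and 145 CPM in Htt103Q [V], against 114 and 103.3 CPM in Htt25Q [V]. Its rise was 0.55 on the log2 scale (SE 0.13, edgeR adjusted p = 0.0033), the largest among the 6 genes without the PACE core. *PUP3* and *PRE7* rose by 0.23 and 0.22 on the log2 scale. The catalytic subunits had unlike values: *PRE3* (YJL001W), with the caspase-like site, fell, while *PRE2*, with the chymotrypsin-like site, was at 0.032 (SE 0.069, edgeR adjusted p = 0.71). *PRE3* had 121, 133 and 122 CPM in Htt103Q [V], against 159 and 152 CPM in Htt25Q [V], a log2 fold change of -0.31 (SE 0.07, edgeR adjusted p = 0.0025). It was the only one of the 33 subunit genes with an intron in the R64 annotation. *PRE1* had 0.29 (SE 0.13), which was not called with vector (edgeR adjusted p = 0.074).

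Of the 6 Rpt ATPase genes 5 rose, and the median log2 fold change of the 6 was 0.35. *RPT2* (YDL007W), whose product opens the gate of the core, had 856, 845 and 784 CPM in Htt103Q [V], against 472 and 460 CPM in Htt25Q [V]. The log2 fold change was 0.83 (SE 0.12, edgeR adjusted p = 0.00017), the largest of the 33. *RPT3* (YDR394W) followed, with 516, 520 and 441 CPM in Htt103Q [V] against 294 and 286 CPM in Htt25Q [V]. Its log2 fold change was 0.76 (SE 0.13, edgeR adjusted p = 0.00045). *RPT5*, *RPT6* and *RPT4* rose by 0.41, 0.30 and 0.29, and *RPT1* at 0.15 (SE 0.10, edgeR adjusted p = 0.20) was not called. The 6 ATPases occupy 1 ring in equal number, and their log2 fold changes ran from 0.15 to 0.83. Differences between these genes were not tested.

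In the Rpn base, *RPN1* and *RPN2* rose and *RPN13* fell. *RPN1* (YHR027C), which holds ubiquitin shuttle factors, had 566, 544 and 519 CPM in Htt103Q [V], against 321 and 331 CPM in Htt25Q [V], a log2 fold change of 0.74 (SE 0.12, edgeR adjusted p = 0.00034). *RPN2* (YIL075C) had 783, 810 and 801 CPM in Htt103Q [V], against 612 and 609 CPM in Htt25Q [V], a log2 fold change of 0.39 (SE 0.08, edgeR adjusted p = 0.0022). In both genes the vector cultures of the strains were well apart. *RPN13* (YLR421C), a ubiquitin receptor, had 66.8, 67.7 and 72.4 CPM in Htt103Q [V], against 82.6 and 79.9 CPM in Htt25Q [V], and fell by 0.24 on the log2 scale (SE 0.07, edgeR adjusted p = 0.0099). In TPM its groups overlapped, with 147.9, 152.0 and 164.9 in Htt103Q [V] against 168.4 and 164.4 in Htt25Q [V]. The groups of the other genes that fell, *SEM1*, *PRE3* and *PRE5*, stayed apart in TPM. *RPN13* is the subunit gene with no match to either searched form of PACE, although its sequence holds the variant ggtggcgaa. It lost the call in 3 of 22 alternatives. *RPN10*, which also encodes a ubiquitin receptor, was at 0.020 (SE 0.081) and was not called.

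In the lid, 3 of 9 genes rose and 1 fell. *RPN11* (YFR004W), which encodes the deubiquitinase that strips the chain from substrates, had 451, 439 and 403 CPM in Htt103Q [V], against 263 and 268 CPM in Htt25Q [V]. Its log2 fold change was 0.70 (SE 0.12, edgeR adjusted p = 0.00059). *RPN6* and *RPN3* rose by 0.66 (SE 0.10) and 0.58 (SE 0.13). Rpn6 clamps the lid to the core, and Rpn3 is the lid subunit next to Sem1 in the assembled lid. *SEM1* (YDR363W-A), a short acidic protein that is also part of an mRNA export complex, had 65.3, 78.5 and 76.0 CPM in Htt103Q [V], against 115 and 117 CPM in Htt25Q [V]. The log2 fold change was -0.67 (SE 0.09, edgeR adjusted p = 0.00015), the largest fall of the 33, and no culture of either strain overlapped the other. *RPN5*, *RPN7*, *RPN8*, *RPN9* and *RPN12* were not called, with log2 fold changes between -0.075 (*RPN12*) and 0.19 (*RPN5*). *RPN8*, whose product pairs with Rpn11, was at 0.13 (SE 0.11), so the pair's genes had unlike values.

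With plasmid *SLX5* in both strains, 14 of the 33 subunit genes were called higher in Htt103Q [SLX5] than in Htt25Q [SLX5] and 3 lower, beside 26.9% and 26.6% of all genes tested. The median log2 fold change of the 33 was 0.17, beside -0.012 over all genes. This comparison shares no culture with that in vector cells. The lists of rises had 11 genes in common (*PUP1*, *PRE4*, *RPT2*, *RPT3*, *RPT5*, *RPT6*, *RPN1*, *RPN2*, *RPN3*, *RPN6* and *RPN11*), which is 78.6% of the list with plasmid and 73.3% of that with vector. *PRE5*, *PRE3* and *SEM1* fell in both, and *RPN13*, at -0.091 (SE 0.059), was not called with the plasmid. No subunit gene called in either comparison had the opposite sign in the other. The overlap and the signs were not counted over all genes, so this agreement is not shown to be particular to subunit genes. *PRE1* rose by 0.48 (SE 0.11, edgeR adjusted p = 0.0044), *RPN5* by 0.32 and *RPN9* by 0.20, and these were called with the plasmid alone. *PRE8*, *PUP3*, *PRE7* and *RPT4* were called with vector alone. Being called in 1 comparison and not in the other does not show a difference: in the interaction, which tests it, 0 of the 34 genes and 0 of 6321 genes were called (0%), with edgeR adjusted p from 0.79 to 0.99 for the 34. At an unadjusted p under 0.05 the interaction had 0 of the 34 genes and 348 of all genes. Without culture Htt103Q [SLX5] b, 18 subunit genes rose and 3 fell with the plasmid, beside 1775 higher and 1677 lower of the 6320 genes tested.

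The log2 fold changes of the falls with the plasmid were nearer 0 than those with vector. They were -0.29 against -0.31 for *PRE3*, -0.24 against -0.31 for *PRE5* and -0.49 against -0.67 for *SEM1*. None of these differences was called in the interaction. *SEM1* had 76.6, 69.3 and 81.8 CPM in Htt103Q [SLX5], against 110, 102 and 108 CPM in Htt25Q [SLX5], or -0.49 on the log2 scale (SE 0.082, edgeR adjusted p = 0.00059). *PRE3* had 128, 122 and 125 CPM in Htt103Q [SLX5], against 160, 150 and 151 CPM in Htt25Q [SLX5]. *PRE5* had 189, 183 and 191 CPM in Htt103Q [SLX5], against 225, 223 and 220 CPM in Htt25Q [SLX5]. For these 3 genes culture b lay just below the other cultures of its group, and no Htt103Q value reached a Htt25Q value. The risers differed in this: *RPT2* had 836, 601 and 773 CPM in Htt103Q [SLX5], against 484, 479 and 457 CPM in Htt25Q [SLX5], with culture b between the other cultures and Htt25Q. Of the 15 subunit genes that rose with vector, all 15 were lowest in culture b within its group, and in 9 of them culture b was still above every Htt25Q culture. These 15 had been selected as higher than Htt25Q [V], whose cultures are among those compared. The matching share over all genes was not counted.

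Plasmid *SLX5* itself changed no proteasome gene past the threshold in either strain. In Htt103Q [SLX5] against Htt103Q [V], 0 of the 34 genes were called, where 1 gene in all (0.0158%), *SLX5*, was called, and none of the 34 had an unadjusted p under 0.05. DESeq2's Wald test called 194 genes higher and 101 lower there, and none of the 33 subunit genes or *RPN4*. The log2 fold changes of the 33 ran from -0.23 (*RPT3*) to 0.16 (*PRE1*), with a median of -0.052, and 23 were negative. *RPN4* was at -0.23 (SE 0.12, edgeR adjusted p = 0.27), and at -0.084 without culture Htt103Q [SLX5] b. The median of the 33 without that culture was 0.021, so the sign of the median rested on it. Leaving out Htt103Q [V] c instead raised the calls over all genes to 893 higher and 754 lower, with 0 of the 33 subunit genes and not *RPN4* among them. In Htt25Q [SLX5] against Htt25Q [V], 0 of the 34 were called, beside 3 genes in all (0.0475%), and the log2 fold changes of the 33 ran from -0.12 (*SEM1*) to 0.11 (*RPN8*), with none at an unadjusted p under 0.05. *RPN4* was there at -0.098 (SE 0.14, edgeR adjusted p = 0.85). With SEs up to 0.14 for these genes, small changes in either direction would not have been detected. The map of single cultures shows the pattern in Htt103Q [SLX5] b.

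**Figure D3:**
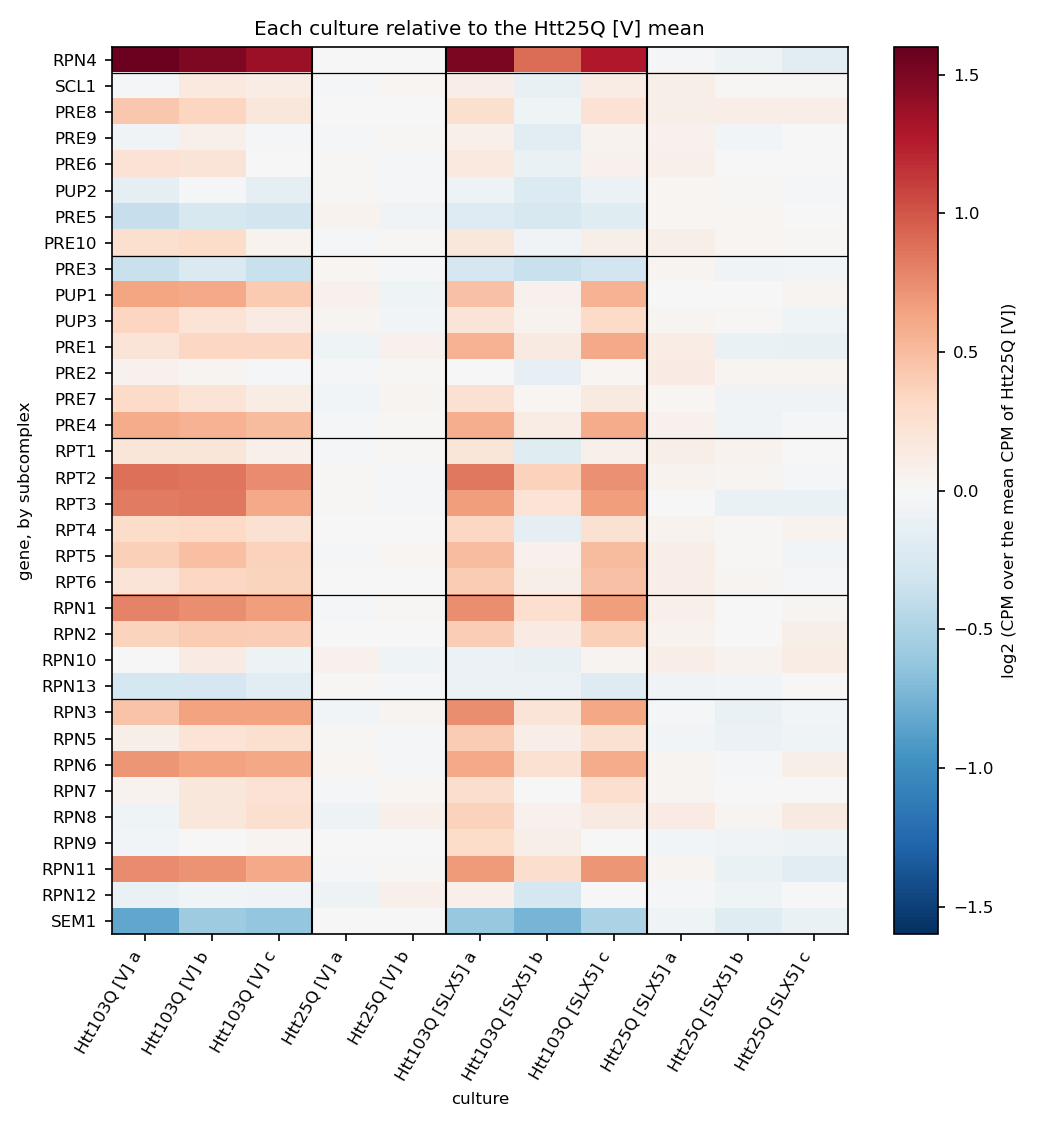
Log2 of the CPM in each culture over the mean CPM of Htt25Q [V], for RPN4 and the 33 subunit genes (rows, by subcomplex) in the 11 cultures (columns, by group); red is higher and blue lower. RPN4 is at 1.56, 1.50 and 1.37 in Htt103Q [V] and at 1.50, 0.89 and 1.28 in Htt103Q [SLX5], and culture Htt103Q [SLX5] b is paler than its neighbors in most red rows.

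Levels of different genes were compared per length, as the deposited TPM values (a transcript's length-scaled share of its library), which do not carry the TMM scaling of the tests. In Htt25Q [V] the 33 subunit genes spanned 11.2-fold, with *SEM1* at 759 ± 2.9 TPM highest and *RPN1* at 67.8 ± 2.2 TPM lowest (SD, n = 2). In Htt103Q [V] they spanned 7.3-fold, with *SEM1* at 543 ± 72 TPM highest and *RPN12* at 74.2 ± 1.7 TPM lowest (SD, n = 3). Per length, *SEM1* is uncertain, since its 270 coding bases left an effective length of 79.3 to 90.1 bases. Both spans rest on *SEM1*, so they do not show a narrower range in Htt103Q [V]. The next highest gene in both groups, *PRE6*, stood at 408 TPM in Htt25Q [V] and 491 TPM in Htt103Q [V]. After *SEM1* in Htt25Q [V] came *PRE6* (408 TPM), *PUP3* (346 TPM) and *PRE10* (313 TPM), all of the core, and the 9 highest genes after *SEM1* held 1 regulatory particle gene, *RPT2*. At the low end *RPN12*, *RPN9*, *RPN3* and *RPN1*, between 67.8 and 71.9 TPM, lay within 1 SD of *RPN12* of each other. *RPN9* and *RPN12* stayed low in Htt103Q [V], at 77.7 and 74.2 TPM, while *RPN1* and *RPN3* stood at 122 and 114 TPM. *RPT2* had rank 3 in Htt103Q [V], at 463 ± 20 TPM, against rank 10 in Htt25Q [V], at 240 ± 2.0 TPM. *RPN4* had 214, 204 and 188 TPM in Htt103Q [V], against 66.4 and 67.4 TPM in Htt25Q [V]. It was level with the lowest subunit genes in Htt25Q [V] and within their range in Htt103Q [V].

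**Figure D4:**
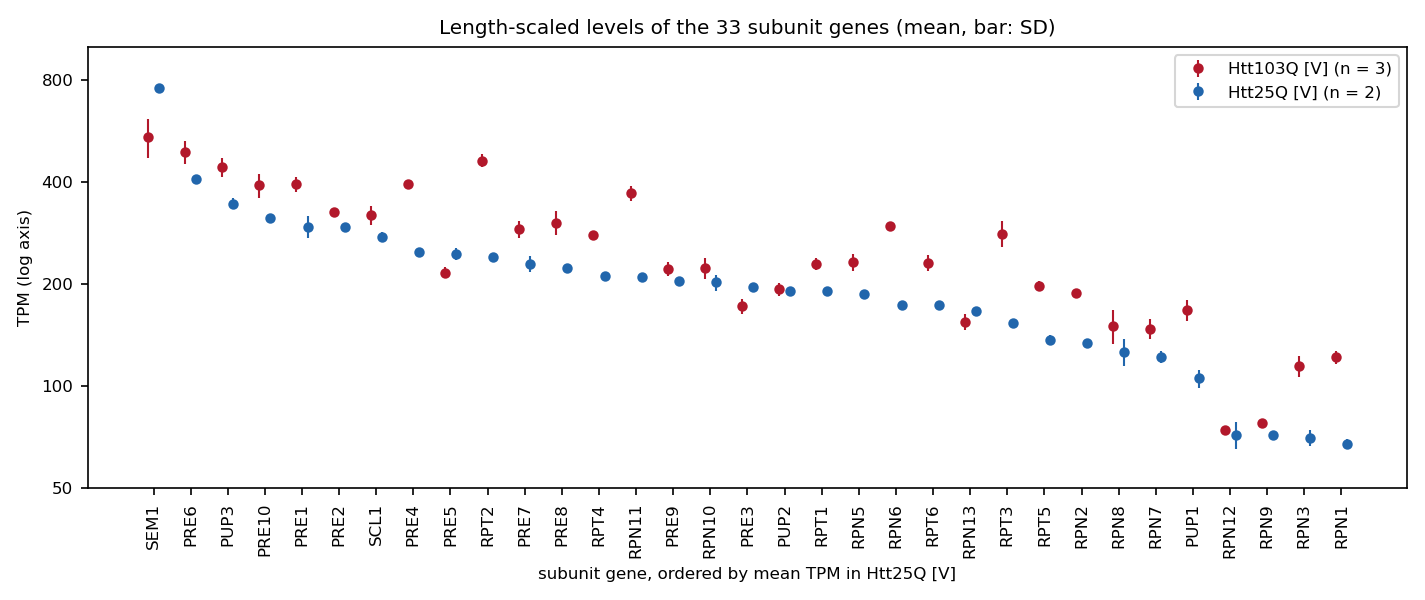
Mean TPM (log axis, bar: SD) of the 33 subunit genes in Htt103Q [V] (n = 3) and Htt25Q [V] (n = 2), ordered by the mean in Htt25Q [V]. The values run from 543 to 74.2 TPM in Htt103Q [V] and from 759 to 67.8 TPM in Htt25Q [V], and RPT2 and RPT3 stand furthest above their neighbors in Htt103Q [V].

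The fold changes went with gene length and with the upstream motif, which overlap. Of the 27 genes with the PACE core, 14 rose with vector and 1 fell (median log2 fold change 0.23), and of the 5 with the looser form alone 1 rose and 2 fell (median 0.019). Across the 33 genes, Spearman's correlation of coding length with the log2 fold change was 0.57 with vector and 0.53 with the plasmid, given as a description since the genes share the same libraries. Over the 5771 genes with an R64 coding length it was 0.15 and 0.14, and the 776 genes under 500 bases had a median of -0.19 with vector. Both subunit genes under 500 bases, *SEM1* and *RPN13*, fell with vector, and the 3 of at least 1500 bases (*RPN1*, *RPN2* and *RPN3*) rose in both comparisons. Length and the motif were not separated here, and their part in the result was not tested. Among the 27 genes, the distance of the core from the start codon had a correlation of 0.17 with the log2 fold change with vector. Of the 45 other genes with the core in the same window, a set added after the values were seen, 43 were tested, and 20 (46.5%) were called higher and 13 (30.2%) lower with vector, beside 27.3% and 29.5% of all genes tested. With the plasmid these counts were 17 (39.5%) and 12 (27.9%), beside 26.9% and 26.6%.

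**Figure D5:**
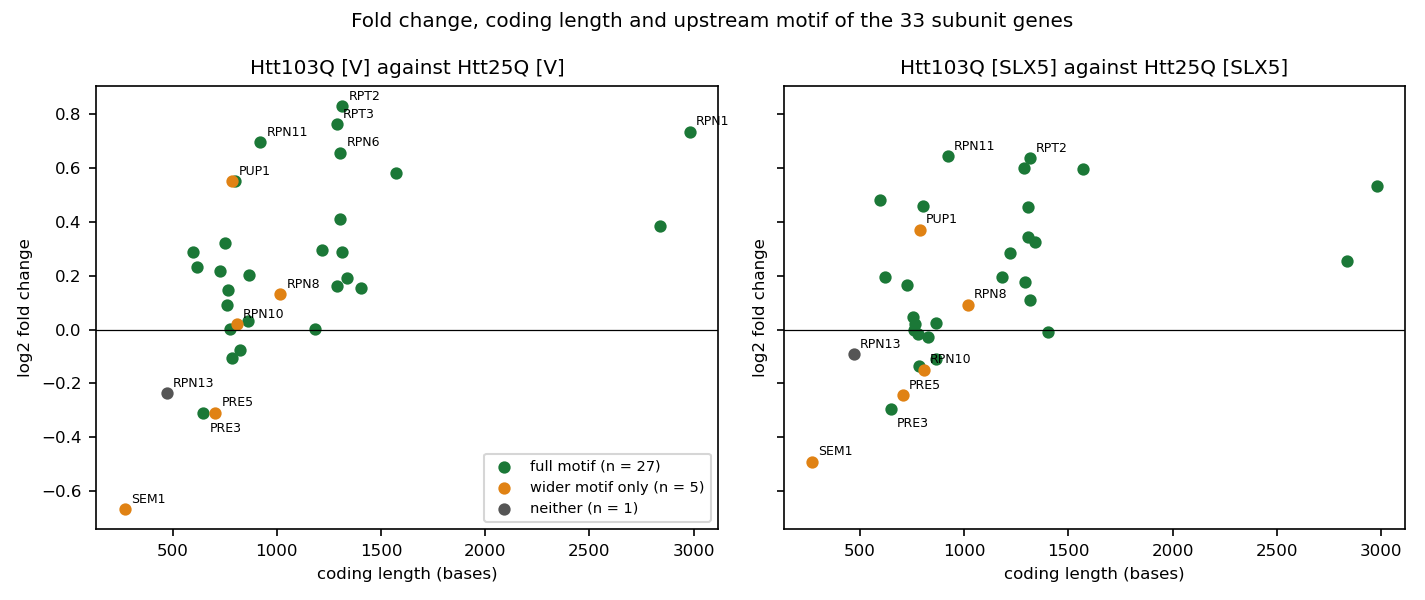
Log2 fold change of the 33 subunit genes against coding length in bases, with vector (left) and with plasmid SLX5 (right), colored by the upstream motif: the PACE core (27 genes), the looser form alone (5) or neither (1). SEM1, the shortest at 270 bases, is lowest in both panels, and the 3 genes of at least 1500 bases lie above 0.

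Genes around the proteasome moved in both directions, as did genes in general, of which 27.3% were called higher and 29.5% lower with vector. No test set the short lists that follow apart from those shares. Of 10 assembly chaperone genes, 2 rose and 4 fell in Htt103Q [V] against Htt25Q [V]. *RPN14* (YGL004C), a chaperone of the ATPase ring and not a subunit, had 49.2, 51.5 and 63.6 CPM in Htt103Q [V], against 92.0 and 94.0 CPM in Htt25Q [V], a log2 fold change of -0.76 (SE 0.11, edgeR adjusted p = 0.00019). *TMA17*, a stress-responsive chaperone of the same ring, was at -0.49 (SE 0.10), and *PBA1*, which starts the alpha ring, at 0.81 (SE 0.14). Of the remaining chaperone genes not for the ATPase ring, *UMP1* rose, at 0.46 (SE 0.10), and *IRC25* fell, at -0.49 (SE 0.11). *ADD66* at -0.076 (SE 0.076) and *POC4* at -0.39 (SE 0.17) were not called. Of the 5 listed chaperone genes for the ATPase ring, *RPN14*, *TMA17* and *NAS2* fell, while *NAS6* at 0.011 (SE 0.075) and *HSM3* at 0.12 (SE 0.12) were not called. With the plasmid *RPN14* and *TMA17* fell again, and *NAS2* at -0.15 (SE 0.077, edgeR adjusted p = 0.12) was not called. Of 7 genes for proteasome partners, 4 rose and 2 fell. *FUB1*, known as an inhibitor of the core, was at -0.58 (SE 0.07, edgeR adjusted p = 7.0e-05), while the activator gene *BLM10* was at 0.56 (SE 0.11) and the scaffold gene *ECM29* at 0.69 (SE 0.15).

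Of 7 regulators of *RPN4*, 3 rose and 2 fell with vector, beside 27.3% and 29.5% of all genes. *YAP1* (YML007W), the oxidative stress factor that binds upstream of *RPN4*, had 368, 368 and 354 CPM in Htt103Q [V], against 200 and 206 CPM in Htt25Q [V], a log2 fold change of 0.84 (SE 0.12, edgeR adjusted p = 0.00016). *PDR3*, a drug resistance factor that also binds there, fell by 0.54 (SE 0.11). The heat shock factor gene *HSF1* fell by 0.23 (SE 0.07), and *RAD6*, which encodes a ubiquitin-conjugating enzyme used in Rpn4 turnover, rose by 0.34 (SE 0.08). Of 8 genes that supply or deliver ubiquitin, 4 rose and 1 fell. *UBA1* (YKL210W), the ubiquitin-activating enzyme, had 522, 500 and 452 CPM in Htt103Q [V], against 276 and 285 CPM in Htt25Q [V], a log2 fold change of 0.81 (SE 0.13, edgeR adjusted p = 0.00034). *UFD1* and *NPL4*, whose products work as a pair with Cdc48, were at 0.83 (SE 0.12) and -0.41 (SE 0.07), and the shuttle gene *DSK2* was at 0.68 (SE 0.12). With plasmid *SLX5* the counts of rises and falls were 1 and 4 for the chaperones, 5 and 2 for the partners, 2 and 3 for the regulators and 4 and 1 for the ubiquitin genes, beside 26.9% higher and 26.6% lower over all genes. No gene of these lists was called for plasmid *SLX5* in either strain or in the interaction.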

How the data were processed

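The authors' processing used bcl2fastq 2.17, Trimmomatic 0.36 for trimming, STAR 2.5.1 for alignment to S288C (EF4) and RSEM 1.2.22 for quantification. Deposited by the authors were expected counts (estimated counts, 7126 genes, 11 libraries, 16.5% not whole) and their TPM values with effective lengths. The strand setting is not given in the sources used here. Counts were rounded, filtered with filterByExpr (6321 genes), scaled by TMM and fitted with edgeR 4.0.16 (R 4.3.3, limma 3.58.1) in 1 model with a mean per group. Differences were tested by edgeR's quasi-likelihood test with Benjamini-Hochberg adjustment over all genes tested and called under 0.05, and each SE is the log2 fold change over the root of F. CPM are TMM-scaled, and a fold change has the first-named group on top. A positive interaction means a larger *SLX5* effect in Htt103Q.

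Libraries were grouped by their labels. Pairs of replicates differed by more than sampling noise. Nothing says that they came from separate transformations beyond their clone letters, so p-values measure the spread between these cultures. A further Htt25Q [V] library is not analysed here. The fits were tested on simulated data first.

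The members and lists were chosen with earlier results of these data known. The named genes are all 34 members, with full values for *RPN4*, the largest called rise of each subcomplex and every called fall with vector, and up to 3 called genes of each other list by p. *RPT3*, *PUP1*, *RPN2* and the other members and list genes given values beyond this rule were added after their values were seen. Alternatives were RLE size factors, the Wald test of DESeq2 1.42.0, a likelihood ratio procedure, no filter, a mean of at least 10 CPM, counts not rounded, robust dispersions, the compared groups alone, a replicate block by clone letter, an adjusted p under 0.01, leaving out each library or the 4 of clone letter a, CPM per effective length and the looser motif. Windows and coordinates are from the RefSeq R64 genome and annotation. Other software was Python 3.11.15, with matplotlib 3.10.9, scipy 1.17.1, pandas 2.3.3 and numpy 2.4.6.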

Additional observations from a re-analysis of the deposited data

How the results depend on the processing

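*RPN4* kept its direction and its call in both comparisons of Htt103Q with Htt25Q under all 22 alternatives. The number of subunit genes called higher with vector was 15, and it was 9 both without Htt25Q [V] a and without the libraries of clone letter a, with a range of 9 to 19 when single libraries were left out. The number called lower with vector was 4, and 1 without the libraries of clone letter a. With plasmid *SLX5* the 14 rises became 8 without the libraries of clone letter a and 9 at an adjusted p under 0.01, with 10 to 18 when single libraries were left out. A stricter threshold gives fewer calls by construction. Leaving out a library does not, since the upper ends of these ranges, 19 and 18, lie above 15 and 14. The median log2 fold change of the 33 subunit genes with vector was 0.20, and 0.19 to 0.28 when single libraries were left out. In Htt103Q [SLX5] against Htt103Q [V] this median ran from -0.11 to 0.021 and in the interaction from -0.13 to 0.026, and the positive values were those without Htt103Q [SLX5] b. *RPN4* in the interaction ran from -0.28 to 0.018 when single libraries were left out, with the reversed value, 0.018, without that culture (edgeR adjusted p = 0.99), and the cause was not tested. Neither *SLX5* comparison nor the interaction called a subunit gene or *RPN4* under any alternative. The replicate block by clone letter gave 13 rises and 4 falls with vector and 13 and 3 with the plasmid. Deviations of same-lettered libraries had correlations from -0.14 to 0.21, with some pairs of every letter at or under 0.1, so the letters were not taken to pair the libraries, although the clone a libraries share a higher ribosomal RNA share. CPM per kilobase of effective length in place of TPM gave the same 11.2-fold span in Htt25Q [V]. This follows from the effective lengths that both units share, so it is no check of the span.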
